A study of Mus musculus with 6 samples.

Results

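COUP-TF nuclear receptors and their cofactors were followed across 6 bulk libraries from amygdala, labelled neuron RNA-seq. The 7 genes were the receptors Nr2f2, Nr2f1 and Nr2f6, the zinc-finger partners Bcl11a and Bcl11b, the corepressor Nrip1 and the FOG protein gene Zfpm2, out of 35976 genes counted. They were selected by name, and were chosen from an earlier reading of the same libraries in which Nr2f2 and Nrip1 stood high in one group. Their difference between the groups is therefore given as a description, and no test of it is offered as support.

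Male C57BL/6J mice received an AAV in the amygdala whose Cas9 is driven by GfaABC1D, an astrocyte promoter. The guides were sgEgfr, against the epidermal growth factor receptor gene, in 3 libraries, or sgRosa, against the Rosa control locus (genotype label sgRosa26), in the other 3. All animals shared the same course. After more than 2 weeks of expression came tube restraint on 7 days, then a fear conditioning day and extinction over 3 days, so no unstressed group was compared. Neurons were enriched with magnetic beads after papain digestion, and 5 ng of RNA entered each library. Editing was thus aimed at astrocytes, whereas the sequenced material was enriched for neurons and also held astrocyte RNA. Ages are not stated, and the labels do not say whether each library came from its own animal, so the spread between libraries may be technical.

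COUP-TFs are orphan members of the nuclear receptor superfamily that mostly act as repressors on direct repeats of the hexamer AGGTCA. In the forebrain Nr2f1 patterns the neocortex and Nr2f2 marks interneurons of the caudal ganglionic eminence and parts of the amygdala. Outside neurons, Nr2f2 is known for keeping endothelial cells of veins in their venous state. BCL11A (CTIP1) and BCL11B (CTIP2) were first described as COUP-TF interacting proteins and are also subunits of BAF chromatin remodelling complexes. NRIP1 (RIP140) binds many ligand-activated receptors and recruits corepressors, and ZFPM2 (FOG2) binds both GATA factors and COUP-TFII, the product of Nr2f2.

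Total counts per library ranged from 2348897 to 10152812, and 3 counts, taken as the floor, were worth 0.270 to 1.25 CPM (counts scaled to library size, with trimmed mean of M-values, TMM, normalization). Egfr was counted 1, 26 and 23 times in sgRosa against 6, 18 and 6 in sgEgfr, too few to check the edit. The neuronal label was checked against 16 pan-neuronal genes, all of which were detected. They summed to between 2160 and 5441 CPM in sgRosa and between 3330 and 5306 CPM in sgEgfr. The 10 oligodendrocyte markers summed to far more, between 24063 and 70501 CPM in sgRosa and between 22231 and 56803 CPM in sgEgfr. The libraries thus held much RNA of other cells beside that of neurons. Astrocyte markers, 12 genes that were all detected, summed to between 890 and 1707 CPM in sgRosa and between 485 and 1768 CPM in sgEgfr. How far the edited cells contribute to the levels below was not tested. Choroid plexus markers summed to 11490 CPM in sgRosa replicate 3 and to 8437 CPM in sgEgfr replicate 1, against 2444 CPM or less in the other 4 libraries. In such bulk RNA, fewer cells of a type and less RNA per cell cannot be told apart.

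The family's shared DNA-binding region shows how far reads of the receptors can be confused. The longest run that the longest coding transcripts of Nr2f2 and Nr2f1 share is 59 bases in exon 1 of each, inside the coding sequence, and the closest stretch of Nr2f6 differs from it at 14 bases, printed in capitals (GENCODE M21, GRCm38, minus strand of each chromosome).
Nr2f2 at chr7:70360052-70360110: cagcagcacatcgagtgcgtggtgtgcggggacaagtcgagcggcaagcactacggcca
Nr2f1 at chr13:78198284-78198342: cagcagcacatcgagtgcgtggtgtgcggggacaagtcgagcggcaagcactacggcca
Nr2f6 at chr8:71381060-71381118: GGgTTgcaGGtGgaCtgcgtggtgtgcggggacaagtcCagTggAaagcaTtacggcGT

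Only 10 of the 4173 stretches of 50 bases in the Nr2f2 transcript (0.240%) also occur in Nr2f1 transcripts, and 0 occur in Nr2f6 transcripts. Reads of that length could thus be split between Nr2f2 and Nr2f1 over this one run only. The read length is not known here.

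Nr2f2 (chromosome 7, 70351944 to 70366735, GRCm38) was measured at 52.0, 59.7 and 61.8 CPM in sgRosa replicates 1, 2 and 3. The sgEgfr libraries held 129, 104 and 99.0 CPM. The groups did not overlap: the lowest sgEgfr value was well above the highest sgRosa value. The means were 57.9 ± 5.17 and 111 ± 16.0 CPM (SD, n = 3 each), a log2 fold change of 0.94 (SE 0.22, 95% interval 0.42 to 1.45). These values rest on 185, 143 and 687 reads in sgRosa and 605, 468 and 254 in sgEgfr. In edgeR's quasi-likelihood fit across 13159 genes its adjusted p was 0.820, and DESeq2 gave 0.0381.

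Nrip1 (chromosome 16, 76287400 to 76373827, minus strand), the corepressor of the group, had the same pattern. It stood at 39.1, 36.3 and 41.5 CPM in sgRosa and at 68.9, 95.9 and 68.2 CPM in sgEgfr. The sgRosa values were close together, and sgEgfr replicate 2 was the highest of the 6 libraries. Its log2 fold change was 0.99 (SE 0.23, 95% interval 0.46 to 1.53), and the adjusted p was 0.820 (edgeR) or 0.0597 (DESeq2). Nr2f2 peaked in sgEgfr replicate 1 and Nrip1 in sgEgfr replicate 2, so the order of libraries within sgEgfr differed between the genes.

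The upstream sequences of this pair are shown because they are the members whose groups did not overlap. Each is the 250 bases before the outermost start in RefSeq (GRCm38.p6), read 5′ to 3′ on the minus strand; other starts are annotated for both genes.
Nr2f2 at chr7:70366747-70366996: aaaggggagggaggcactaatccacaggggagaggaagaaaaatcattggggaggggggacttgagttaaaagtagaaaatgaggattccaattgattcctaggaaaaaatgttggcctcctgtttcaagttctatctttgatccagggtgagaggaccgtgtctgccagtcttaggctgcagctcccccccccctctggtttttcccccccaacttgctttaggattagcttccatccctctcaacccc
Nrip1 at chr16:76373828-76374077: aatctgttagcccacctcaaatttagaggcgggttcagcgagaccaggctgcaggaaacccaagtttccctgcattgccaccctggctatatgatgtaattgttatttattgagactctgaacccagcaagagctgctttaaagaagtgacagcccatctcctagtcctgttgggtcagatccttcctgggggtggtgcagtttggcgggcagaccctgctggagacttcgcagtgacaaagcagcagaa

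Neither window held AGGTCA or TGACCA on either strand, and hence no letters are in capitals. Of 32851 RefSeq promoter windows of 300 bases, 16.3% held AGGTCA and 13.6% held TGACCA. A direct repeat of AGGTCA with any 1 base between the copies was in 0.0396%. The tables matched 6 of the 7 members with 8 windows (Zfpm2 had no entry), and the single match among them was a TGACCA on the reverse strand, 73 bases before an internal start of Nr2f1. The Nr2f2 and Nrip1 windows above held 1 and 4 CpG dinucleotides at 50% and 51.2% GC. A second Nrip1 window, before another start, held 32 CpG dinucleotides at 73.6% GC and 2 copies of GGGCGG. Nr2f2 had only 1 window, so the sequence before its other starts was not read. The Nr2f6 window held 42 CpG dinucleotides at 82.4% GC and 7 copies of GGGCGG, the core of a GC box.

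**Figure D1:**
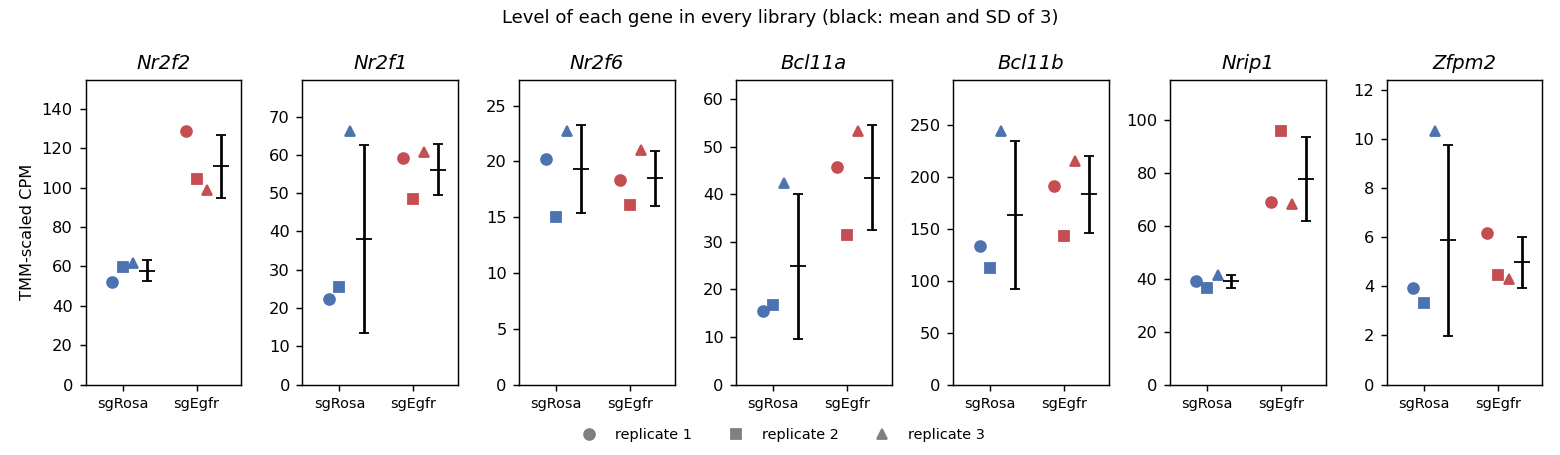
TMM-scaled CPM (linear axes from 0) of the 7 genes in each of the 3 sgRosa and 3 sgEgfr libraries; black bars are the mean and SD. The groups are apart for Nr2f2 and Nrip1, whereas sgRosa replicate 3 lies among the sgEgfr libraries for Bcl11a and above all of them for Nr2f1, Bcl11b, Nr2f6 and Zfpm2.

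Nr2f1 (chromosome 13, 78188973 to 78199757), the paralogue of Nr2f2, split the control libraries. It was at 22.2 and 25.5 CPM in sgRosa replicates 1 and 2 but at 66.3 CPM in sgRosa replicate 3. The sgEgfr libraries lay between, at 59.1, 48.4 and 60.8 CPM. The highest value of all was thus in a control library, and the log2 fold change of 0.54 (SE 0.42, 95% interval -0.44 to 1.52) lay within the spread between libraries (edgeR adjusted p = 0.850). It was 1.23 once sgRosa replicate 3 was left out, and 0.29 once sgRosa replicate 1 was.

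Bcl11a (chromosome 11, 24078056 to 24174123) had a profile close to that of Nr2f1. It was at 15.5, 16.7 and 42.4 CPM in sgRosa and at 45.6, 31.5 and 53.4 CPM in sgEgfr. Here sgRosa replicate 3 lay inside the range of sgEgfr, while for Nr2f1 it lay above it. Its log2 fold change was 0.77 (SE 0.43, 95% interval -0.22 to 1.77; edgeR adjusted p = 0.820) and was 1.43 without sgRosa replicate 3. The difference in log2 CPM between Bcl11a and Nr2f1 stayed between -0.64 and -0.19 over the 6 libraries, although each gene on its own spanned 1.76 and 1.56 log2 units.

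Bcl11b (chromosome 12, 107910403 to 108003602), a factor of corticofugal and striatal projection neurons, had the most counts of the 7. It was at 133, 112 and 245 CPM in sgRosa and at 191, 143 and 216 CPM in sgEgfr. The groups overlapped widely, and the log2 fold change was 0.16 (SE 0.35, 95% interval -0.65 to 0.98). The value was 0.57 with sgRosa replicate 3 left out and -0.0037 with sgRosa replicate 2 left out, and it turned to -0.22 when the pan-neuronal mean of each library was a covariate.

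Nr2f6 (chromosome 8, 71374123 to 71381960), the more distant receptor of the family, was the most even gene. It was at 20.2, 15.0 and 22.8 CPM in sgRosa and at 18.3, 16.1 and 21.0 CPM in sgEgfr. The log2 fold change of -0.08 (SE 0.26) has a 95% interval of -0.68 to 0.51, so that changes of the size fitted for Nr2f2 lie outside it. Exons of Ocel1 on the opposite strand cover 54.4% of the Nr2f6 exons, and the strand setting of the counting is not known. Ocel1 itself had between 2 and 26 counts per library. Opposite-strand transcripts also touch exons of Nr2f2 (B130024G19Rik, 7.46%, at most 19 counts), Nr2f1 (A830082K12Rik, 2.42%, at most 93 counts) and Bcl11a (4930538E20Rik, 2.40%, at most 1 count).

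Zfpm2 (chromosome 15, 40655035 to 41104592), a cofactor also expressed in deep cortical layers, had the fewest reads of the 7. It had 14, 8 and 115 reads in sgRosa and 29, 20 and 11 in sgEgfr, or 3.94, 3.34 and 10.4 against 6.18, 4.46 and 4.29 CPM. The single high value was in sgRosa replicate 3. Its log2 fold change was -0.30 (SE 0.50, 95% interval -1.46 to 0.86) and 0.44 without that library.

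Of the 7 genes, all of which passed the filter on low counts, 5 had a positive and 2 a negative log2 fold change, with a median of 0.54. Over all 13159 genes the median was -0.04, and 46.2% were positive. By edgeR 0 of 7 passed an adjusted p of 0.05, and 0% of all genes tested passed in either direction (the smallest adjusted p was 0.820, and 759 genes had an unadjusted p under 0.05). The groups did not overlap, with sgEgfr higher, for 2 of 7 members and for 5.80% of all genes tested; the share with sgEgfr lower was 7.60%, with 0 members among them. DESeq2 called 1 of the 7, Nr2f2, where it called 0.385% of the genes with a defined adjusted p higher and 0.0249% lower; that of Zfpm2 was undefined. The members were picked with this contrast known, so these counts carry no weight of their own.

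**Figure D2:**
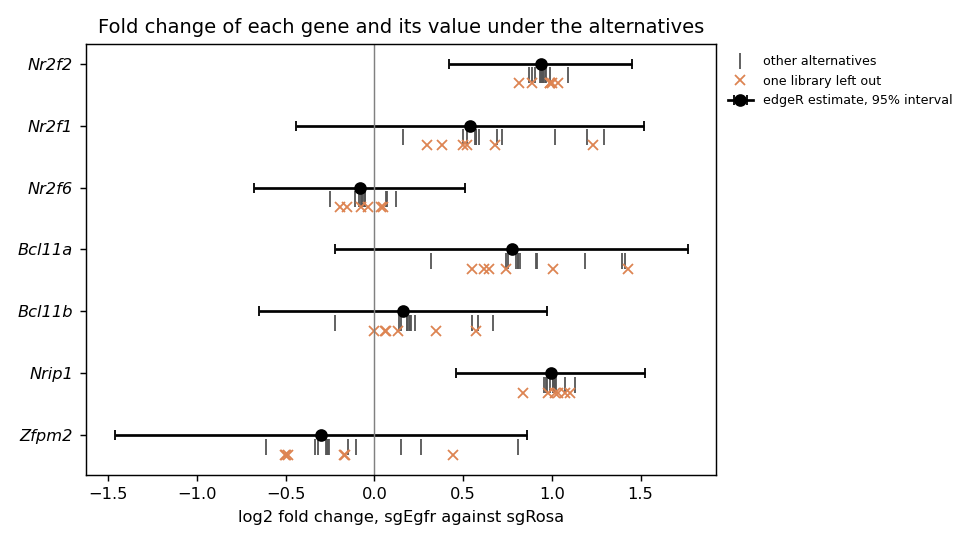
Log2 fold change of sgEgfr against sgRosa for each gene (black point, edgeR estimate with its 95% interval), with the values under the other settings as grey ticks and with 1 library left out as orange crosses. Nr2f2 stays between 0.81 and 1.09 and Nrip1 between 0.84 and 1.13 over 18 alternatives, while Nr2f6, Bcl11b and Zfpm2 fall on both sides of 0.

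Per kilobase of annotated exon the order of the genes was much the same in both groups. Bcl11b led with 20.2 ± 8.79 CPM per kb in sgRosa against 22.6 ± 4.57 for sgEgfr (SD, 3 libraries each). In sgRosa the 3 receptors could not be ordered beyond their spread, at 7.46 ± 4.83 for Nr2f1, 6.71 ± 0.599 for Nr2f2 and 6.49 ± 1.32 CPM per kb for Nr2f6. In sgEgfr Nr2f2 at 12.8 ± 1.86 and Nr2f1 at 11.0 ± 1.32 CPM per kb overlapped, and both lay above Nr2f6 at 6.20 ± 0.835. Nrip1 had 3.40 ± 0.225 in sgRosa and 6.78 ± 1.38 CPM per kb in sgEgfr, where it was at the level of Nr2f6. Bcl11a followed with 1.89 ± 1.15 and 3.30 ± 0.844, and Zfpm2 was last with 0.616 ± 0.408 and 0.522 ± 0.110 CPM per kb. Exon lengths are unions over all annotated transcripts, so genes with long alternative exons are understated.

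The libraries differed in their neuronal content, which moved with some members and not with others. The pan-neuronal mean (16 genes, log2 CPM, all with positive log2 fold changes) was 6.31, 6.31 and 7.48 in sgRosa and 7.29, 6.85 and 7.52 in sgEgfr. The 2 low values were sgRosa replicates 1 and 2, which were also lowest for Nr2f1, Bcl11a and Bcl11b. Taken relative to this mean, the span over the 6 libraries narrowed from 1.56 to 0.57 log2 units for Nr2f1, from 1.76 to 0.56 for Bcl11a and from 1.12 to 0.51 for Bcl11b. It did not narrow for Nr2f2, from 1.30 to 1.38, and it widened for Nrip1, from 1.39 to 1.83, and for Nr2f6, from 0.59 to 1.15. For Zfpm2 the spans were 1.52 and 1.23.

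**Figure D3:**
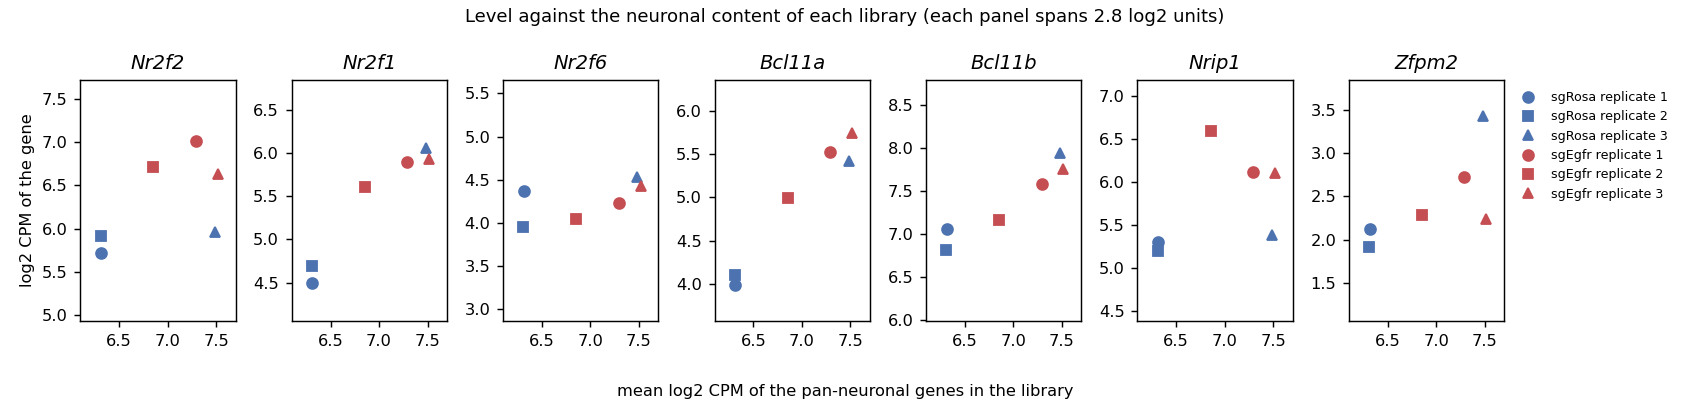
Log2 CPM of each gene against the pan-neuronal mean (16 genes, log2 CPM) in the same library, 1 point per library and equal vertical spans. The points of Nr2f1, Bcl11a and Bcl11b rise with the neuronal mean in both groups, whereas sgRosa replicate 3, at a neuronal mean of 7.48, keeps the low Nr2f2 and Nrip1 levels of its group.

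Relative to the pan-neuronal mean, Nr2f2 stood at -0.60, -0.40 and -1.52 log2 units in sgRosa and at -0.27, -0.14 and -0.88 in sgEgfr. The groups overlapped, because sgEgfr replicate 3 was below 2 control libraries, and the difference of their means was 0.41. Without sgRosa replicate 3 that difference was 0.0679, and with Snap25, a synaptic vesicle fusion gene, in place of the list it was 0.0466. It was -0.011 without sgRosa replicate 3 and sgEgfr replicate 1, the libraries with the most choroid plexus RNA. Fitted instead as a covariate across all genes, the pan-neuronal mean left the log2 fold change of Nr2f2 at 0.89. The per-library ratio assumes that Nr2f2 moves in step with neuronal content, and the covariate estimates the slope, with 3 residual degrees of freedom.

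Nrip1 behaved alike on this scale, at -1.01, -1.11 and -2.09 in sgRosa and -1.18, -0.26 and -1.42 in sgEgfr. The difference of the means was 0.45, with overlapping groups, and it was 0.11 without sgRosa replicate 3 or without sgEgfr replicate 2. With the pan-neuronal covariate its log2 fold change was 1.02.

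Bcl11a, Bcl11b and Zfpm2 overlapped on the CPM scale and separated on this one. Bcl11a was at -2.32, -2.21 and -2.06 in sgRosa and -1.77, -1.86 and -1.77 in sgEgfr, higher in all 3 sgEgfr libraries by a mean of 0.40. Only 0.676% of all genes tested were separated with sgEgfr higher relative to the pan-neuronal list. Bcl11b was at 0.75, 0.51 and 0.45 in sgRosa and 0.29, 0.31 and 0.24 in sgEgfr, lower by 0.29 on average (sgEgfr minus sgRosa -0.29). Zfpm2 was lower too, at -4.19, -4.40 and -4.06 against -4.57, -4.57 and -5.28. These Zfpm2 values rest on 14, 8 and 115 reads in sgRosa and 29, 20 and 11 in sgEgfr. The narrow gap between the groups was not set against the counting error of so few reads. Separation with sgEgfr lower was seen for 8.17% of all genes on this scale. With Snap25 as the reference the difference of Bcl11a shrank to 0.0405 with overlapping groups, and that of Nr2f1 changed from 0.21 to -0.15. Bcl11b at -0.65 no longer separated on that reference, and Zfpm2 at -0.95 still did, on the same few reads.

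**Figure D4:**
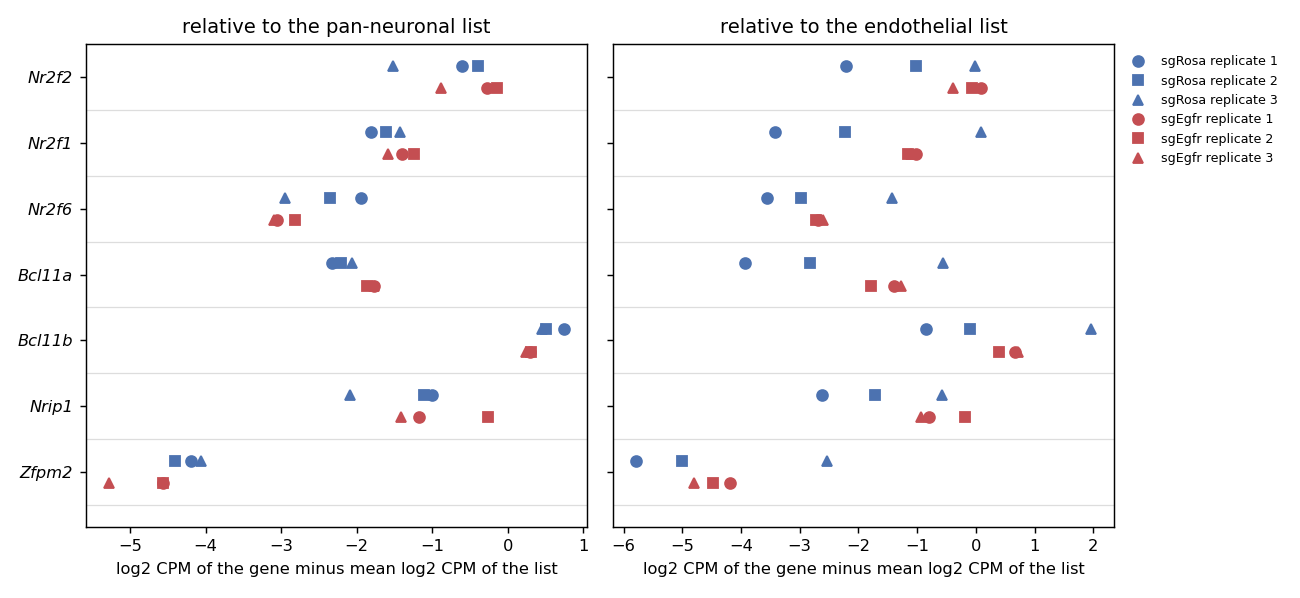
Log2 CPM of each gene minus the mean log2 CPM of the pan-neuronal list (left) or the endothelial list (right), 1 point per library. On the left Bcl11a, Bcl11b and Zfpm2 separate by group and Nr2f2 and Nrip1 overlap; on the right the sgRosa libraries spread more widely than the sgEgfr libraries for every gene and all 7 overlap.

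Vascular RNA was compared because Nr2f2 is a gene of venous endothelium. The 14 endothelial markers were all detected and summed to 5810, 2593 and 1509 CPM in sgRosa and 2927, 2592 and 3085 CPM in sgEgfr. The sgRosa libraries were the more uneven, with the highest and the lowest value. Nr2f2 relative to the endothelial mean was at -2.21, -1.01 and -0.0107 in sgRosa and at 0.0967, -0.0605 and -0.40 in sgEgfr. The groups overlapped for all 7 members on this scale, where 1.44% of all genes were separated with sgEgfr higher and 1.49% with sgEgfr lower. The endothelial mean as a covariate left Nr2f2 at 0.94 and Nrip1 at 0.99. Relative to pericyte and smooth muscle markers, Nr2f2 and Nrip1 separated with sgEgfr higher, by 1.14 and 1.18, as did 2.44% of all genes (1.32% with sgEgfr lower).

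Markers of veins did not follow the endothelial list as a whole. The 6 venous genes, all detected, summed to 277, 322 and 178 CPM in sgRosa and 271, 424 and 509 CPM in sgEgfr. Of the 6, 4 had positive and 2 negative log2 fold changes (median 0.47). Separation with sgEgfr higher was seen for 1 of the 6, beside 5.80% of all genes tested. That 1 was Ackr1, a chemokine-binding receptor of venules named here after its values were seen, at 9.56, 30.9 and 32.4 CPM in sgRosa and at 34.8, 110 and 147 CPM in sgEgfr. Nr2f2 was highest in sgEgfr replicate 1, where the venous sum was the lowest of its group. Relative to the venous mean, a scale also added after seeing the data, Nr2f2 was at 0.68, 0.47 and 1.30 in sgRosa and 1.73, 1.07 and 0.69 in sgEgfr, with overlapping groups and a mean difference of 0.35. With the venous mean as a covariate, a setting chosen after seeing the data, the log2 fold change of Nr2f2 was 1.09 and that of Nrip1 1.08. The part of venous RNA in the Nr2f2 level was not tested beyond these values.

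Interneurons of the caudal ganglionic eminence, a neuronal group that Nr2f2 marks, did not differ in summed marker level beyond the spread between libraries. Their 12 markers, all detected, summed to 258, 215 and 274 CPM in sgRosa and 264, 219 and 305 CPM in sgEgfr. Of the 8 tested, 3 had positive and 5 negative log2 fold changes (median -0.34). Among these markers 1 was separated with sgEgfr lower, beside 7.60% of all genes tested. Relative to the mean of these markers, Nr2f2 stood at 1.18, 1.65 and 1.52 in sgRosa and 2.91, 2.53 and 2.17 in sgEgfr. Nrip1 also separated. On that scale 8.59% of all genes were separated with sgEgfr higher and 2.17% with sgEgfr lower. General inhibitory markers had negative log2 fold changes in 7 of 7 tested (median -0.49) and summed to between 138 and 325 CPM in sgRosa and between 121 and 248 CPM in sgEgfr. Excitatory markers were positive in 9 of 11 (median 0.75), with sums between 962 and 3238 CPM in sgRosa and between 1754 and 2825 CPM in sgEgfr. Relative to the excitatory mean, Nr2f2 and Nrip1 differed by only 0.0724 and 0.116 (sgEgfr minus sgRosa), with overlapping groups. Relative to the inhibitory mean these differences were 1.49, with overlapping groups, and 1.54. Microglial markers were positive in 10 of 10 (median 1.35), and their sums overlapped, between 84.1 and 206 CPM in sgRosa and between 40.9 and 597 CPM in sgEgfr. Markers of striatal projection and intercalated neurons, cells that also express Bcl11b, were positive in 2 of 10 (median -0.69). Separation with sgEgfr lower was seen for 2 of these 10 and for 7.60% of all genes tested. The sums of these markers overlapped, between 671 and 912 CPM in sgRosa and between 648 and 773 CPM in sgEgfr. Oligodendrocyte markers were positive in 0 of 10 and ependymal markers in 0 of 6, with overlapping sums. The part of these cell types in the members' levels was not tested.

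The genes around the members were read from lists of receptors and cofactors. With adjustment over the whole table, edgeR called 0 of their genes in either direction. Within the NR2 subfamily Nr2e1 and Nr2e3, at 12 and 1 counts at most, were too low to test. The testicular receptor genes Nr2c1 and Nr2c2 had log2 fold changes of -0.59 (SE 0.47) and 0.33 (SE 0.29), neither beyond the spread between libraries.

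Receptors that share DR1-type sites or bind NRIP1 were positive in 11 and negative in 10 of 21 (median 0.0281). Rxrg, a retinoid X receptor that can pair with many nuclear receptors, was at 40.8, 30.9 and 22.8 CPM in sgRosa and at 15.6, 12.1 and 16.0 CPM in sgEgfr. It was lower in all 3 sgEgfr libraries (log2 fold change -1.11, SE 0.29), opposite in direction to Nr2f2. Of the 21 receptors, 1 was separated with sgEgfr lower and 1 with sgEgfr higher, beside 7.60% and 5.80% of all genes tested. The thyroid hormone receptor gene Thrb had a log2 fold change of 1.10 (SE 0.45), with overlapping groups at 24.2, 50.1 and 78.0 against 133, 67.8 and 127 CPM.

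Corepressor genes were positive in 19 of 28 (median 0.0664), and 5 were separated with sgEgfr higher against 1 lower, where 5.80% and 7.60% of all genes tested were. The NuRD subunit gene Gatad2b was at 60.2, 65.2 and 71.8 CPM in sgRosa and 101, 104 and 112 CPM in sgEgfr (log2 fold change 0.68, SE 0.21). Rcor1, a scaffold of the CoREST complex, had 0.51 (SE 0.23) and Tbl1x, a subunit of the NCoR complex, 0.36 (SE 0.21). Coactivator genes were positive in 10 of 15 (median 0.16), with the mediator subunit gene Med1 at 0.81 (SE 0.30) and the acetyltransferase gene Crebbp at 0.65 (SE 0.25). Both were higher in all 3 sgEgfr libraries. They were the 2 of the 15 with separated groups, beside 5.80% of all genes tested with sgEgfr higher.

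BAF subunit genes, which encode the complex that holds BCL11A and BCL11B, were positive in 13 of 23 (median 0.10). Arid1b was at 75.9, 110 and 121 CPM in sgRosa and 181, 179 and 166 CPM in sgEgfr (log2 fold change 0.78, SE 0.25). It was the 1 gene of the 23 with separated groups, beside 5.80% of all genes tested with sgEgfr higher. Smarcb1 and Dpf2 had -0.37 (SE 0.24) and -0.31 (SE 0.23). Among GATA and FOG genes, Zfpm1 (0.0304), Gata2 (0.33) and Gata3 (0.70, SE 0.69) could be tested beside Zfpm2, and all 3 had overlapping groups.

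Genes described as targets or partners of COUP-TFs in brain and vessel development were positive in 16 of 24 (median 0.16), and 3 were separated with sgEgfr higher (5.80% of all genes tested) against 0 lower (7.60%). The chromatin organizer gene Satb1 was at 34.0, 34.7 and 46.8 CPM in sgRosa and 87.7, 55.6 and 75.2 CPM in sgEgfr (log2 fold change 0.91, SE 0.26). The arterial ligand gene Efnb2 (0.56, SE 0.23) and the receptor gene Notch1 (0.66, SE 0.27) were also higher in all 3 sgEgfr libraries. In venous endothelium the product of Nr2f2 is known to restrain Notch signalling. None of these genes passed the edgeR test (adjusted p = 0.820 each).

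The genes whose level was most like that of Nr2f2 over the 6 libraries were Pura (Pearson r = 0.981), Zdhhc21 (0.977), Rnf152 (0.977), Taok1 (0.975) and Klf13 (0.970), of 9674 genes considered. Their log2 fold changes lay between 0.67 and 0.90, so the likeness includes the difference between the groups. After the group means were taken off, the list changed to Zbtb44 (0.993), Msx1 (0.989), Limk1 (0.986), Col4a3 (0.984) and Scyl3 (0.982). With 6 libraries high values are common: 93 genes reached 0.9 on the first measure and 66 on the second.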

How the data were processed

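The authors deposited whole-number read counts per gene without normalization, 1 table per library and 1 of the whole series; 6 of its columns were identical to the separate tables, and 3 columns that match no sample were not used. The submitters' processing notes name featureCounts 2.0.1, STAR 2.7.5c, fastp 0.23.2, edgeR 3.42.4 and the build mm10; annotation, strand setting and options are not given in the sources used here. Libraries were grouped by title, and no pair agreed within sampling noise (lowest chi-square per degree of freedom 9.53). Counts were filtered with filterByExpr (minimum count 10, minimum total 15), which left 13159 genes, and scaled by TMM. The groups were compared with the quasi-likelihood F test of edgeR 4.0.16 under R 4.3.3 (robust dispersions, Benjamini-Hochberg over all genes, threshold 0.05). SEs come from the fold change and F statistic. Levels relative to a marker list are differences in log2 CPM (prior count 2) from the mean of its tested genes. DESeq2 1.42.0 and limma 3.58.1 were alternatives, and the edgeR procedure was tested on simulated data. The members and lists were chosen with earlier results of these data known. The genes named are all members, Egfr, up to 3 tested genes with the smallest p per pathway list, the 5 most like Nr2f2 (mean log2 CPM of at least 3) and opposite-strand neighbours. Ackr1 and Slitrk2 fall outside this rule and were named after their values were seen; Snap25 is a planned reference gene. Cxcr7 was read as Ackr3, and 300 of 301 list genes were in the table. The floor of 3 counts covers counting error only, since no molecular identifiers are named.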

Additional observations from a re-analysis of the deposited data

How the results depend on the processing

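Scaling (RLE, upper quartile, library size), the stricter filter, limma-voom, the covariates and leaving out each library gave 0 genes, as the main test did; without a filter 1 gene passed (Slitrk2), and with DESeq2 33. Nr2f2 passed with DESeq2 alone (log2 fold change 0.95, adjusted p = 0.0381, against 0.0381 to 1.00 over all 18 alternatives), and its value was positive in all 18. Nrip1, Nr2f1 and Bcl11a were also positive in all 18. All settings reuse these libraries, and the choice of members rested on high Nr2f2 and Nrip1 levels in them. The shared sign therefore carries no weight of its own. The sign of Nr2f6 turned with limma-voom (0.0706), with the venous covariate (0.12) and without the choroid plexus libraries (0.0644); leaving out single libraries gave -0.19 to 0.0466. That of Zfpm2 turned with limma-voom (0.15), with the venous covariate (0.81) and without the choroid plexus libraries (0.26), and lay between -0.50 and 0.44 with single libraries left out. Bcl11b was -0.22 with the pan-neuronal covariate and -0.0037 to 0.57 with single libraries left out. The cause of these turns was not tested. With the replicate block 0 genes passed and Nr2f2 was at 0.93. The labels do not say whether libraries of the same number share an animal or a batch. Deviations of same-numbered libraries from their group means correlated at -0.0311, 0.48 and 0.28 for replicates 1, 2 and 3. In sgRosa, replicates 2 and 3 were most like their own number in sgEgfr and replicate 1 was not. With 3 libraries per group these correlations cannot settle whether a batch was shared. Depth limits Zfpm2 most, at 8 to 29 reads in 5 of the 6 libraries.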
